A study of Mus musculus with 27 samples.

Results

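The metabotropic glutamate receptor genes Grm2, Grm3, Grm4, Grm5, Grm7 and Grm8 were followed in RNA-sequencing counts from the frontal cortex (FC) and striatum (STR) of adult mice. They are 6 of the 52636 gene identifiers counted, chosen by their symbols with earlier results of these data known. All 6 passed every filter on low counts used here. Libraries came from wild-type mice (6 from FC, 7 from STR) and from Igf2enh-/- mice (6 from FC, 8 from STR), all on the 129S1 background and about 2.5 months old. Igf2enh-/- mice are homozygous for the loss of a 4.9 kb enhancer between H19 and Igf2, made by gene targeting with Hprt-CRE removal of the selection cassette, which left 1 loxP site behind. The deletion is constitutive, so both regions and all their cell types carry it, and since it lies between genes no gene count checks it directly. Each FC group held 3 females and 3 males; in STR there were 3 females and 4 males among wild-type mice and 4 of each sex among Igf2enh-/- mice. Libraries are named by the number that opens their label, 1 to 12 in FC and 13 to 27 in STR.

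Metabotropic glutamate receptors are G protein-coupled receptors that tune glutamate transmission more slowly than the ion channel receptors do. Group I receptors, such as Grm5, couple to Gq and phospholipase C and sit mostly on the postsynaptic side. Receptors of group II (Grm2, Grm3) and group III (Grm4, Grm6, Grm7, Grm8) couple to Gi and Go, lower cyclic AMP and are known as brakes on transmitter release. In striatum, medium spiny neurons, the inhibitory projection neurons that make up most of its neurons, receive their glutamate from cortex and thalamus.

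Totals ran from 23686945 to 33926904 counts per library, so that 1 CPM, the unit of level used here (counts scaled to library size), stood for 23.7 to 33.9 counts, and the lowest count of a member was 42, for Grm2 in striatal library 22. Summed CPM of 8 cortical projection neuron markers was 2270 to 2502 in FC and 55.6 to 1138 in STR, and that of 9 medium spiny neuron markers 178 to 259 in FC and 3759 to 10500 in STR, with no marker of either list at 0 in either region. Striatal library 20 (wild-type, male) stood apart, with the highest cortical sum and the lowest medium spiny neuron sum of its region. It was also the highest of STR for oligodendrocyte (10017 CPM), astrocyte (1663 CPM) and endothelial markers (230 CPM). For interneuron (983 CPM) and olfactory bulb markers (30.3 CPM) it was the lowest. Library 15 (Igf2enh-/-, female) was left out beside it in an alternative fit. Its 7 choroid plexus markers summed to 4518 CPM against at most 364 in every other striatal library. Libraries 23 and 19 were flagged in STR as well, with values in the closing sections. Receptor differences printed for STR, and counts of list genes called, are also given without library 20 or without libraries 15 and 20. This was done where leaving them out changed a call, a direction or a value by more than 1.5 times. Because tissue was measured in bulk, fewer cells of a type and less RNA per cell cannot be told apart.

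The receptor repertoire was ordered by its level per kilobase of exon, which allows genes of different length to be compared. In FC, Grm2 (28.0 ± 2.49 CPM per kb, SD, n = 12) and Grm5 (26.8 ± 1.69) led, followed by Grm3 (13.5 ± 0.738), Grm7 (10.8 ± 0.711), Grm4 (4.83 ± 0.457) and Grm8 (2.40 ± 0.440). Grm2 exceeded Grm5 in 8 of 12 FC libraries, so these neighbours did not differ beyond their spread, while every later step of this order held in all 12. In STR the order was Grm5 (59.4 ± 9.52 CPM per kb, SD, n = 15), Grm4 (22.9 ± 3.95), Grm3 (17.2 ± 1.74), Grm7 (9.97 ± 1.04), Grm2 (2.56 ± 3.04) and Grm8 (1.54 ± 0.210). Grm2 thus went from the top of the order to next to last, and Grm4 rose from next to last to a place behind Grm5. Grm2 exceeded Grm8 in 8 of 15 striatal libraries and the 2 genes overlapped, whereas Grm5 exceeded Grm4 in all 15. Lengths came from another annotation than the one used for counting, and with the longest transcript in place of all exons Grm5 passed Grm2 and Grm7 passed Grm3 in FC, both by means and in 11 of 12 libraries. In STR the means of Grm2 and Grm8 then came to 2.56 and 2.52 CPM per kb, and Grm2 exceeded Grm8 in 4 of 15 libraries.

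Outside the 6 genes, Grm6, the group III receptor of retinal ON bipolar cells, had 4 counts in all, spread over 3 of the 27 libraries with at most 2 in any, and was not tested. Its level was below the floor of 3 counts, which equals 0.0884 to 0.127 CPM per library.

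Summed by receptor group, the 6 genes gave a different balance in each region. Group II held 45.0% to 51.0% of the summed CPM per kb in FC libraries (median 47.4%), group I 29.0% to 34.4% (median 30.9%) and group III 19.4% to 22.8% (median 20.9%). In STR, group I held 39.4% to 55.5% (median 52.9%), group III 27.5% to 32.9% (median 30.1%) and group II 14.5% to 33.2% (median 16.4%). The ranges of FC and STR did not overlap for any of the 3 groups. The sum over all 6 genes was 80.9 to 93.0 CPM per kb in FC and 80.2 to 129 in STR, where library 20 was the lowest. Leaving that library aside, the lowest striatal sum was the 104 CPM per kb of library 19. Shares by genotype overlapped in both regions: group II made up 47.1% to 51.0% in wild-type and 45.0% to 49.6% in Igf2enh-/- FC, and group I made up 39.4% to 55.5% in wild-type and 48.9% to 55.5% in Igf2enh-/- STR. The shares depend on the length used. With the longest transcript in place of all exons, FC medians were 41.9% for group II, 31.9% for group I and 25.2% for group III. Those of STR were 14.1%, 52.9% and 32.1%, and the ranges of FC and STR again did not overlap. These sums are descriptions and were not tested.

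**Figure D1:**
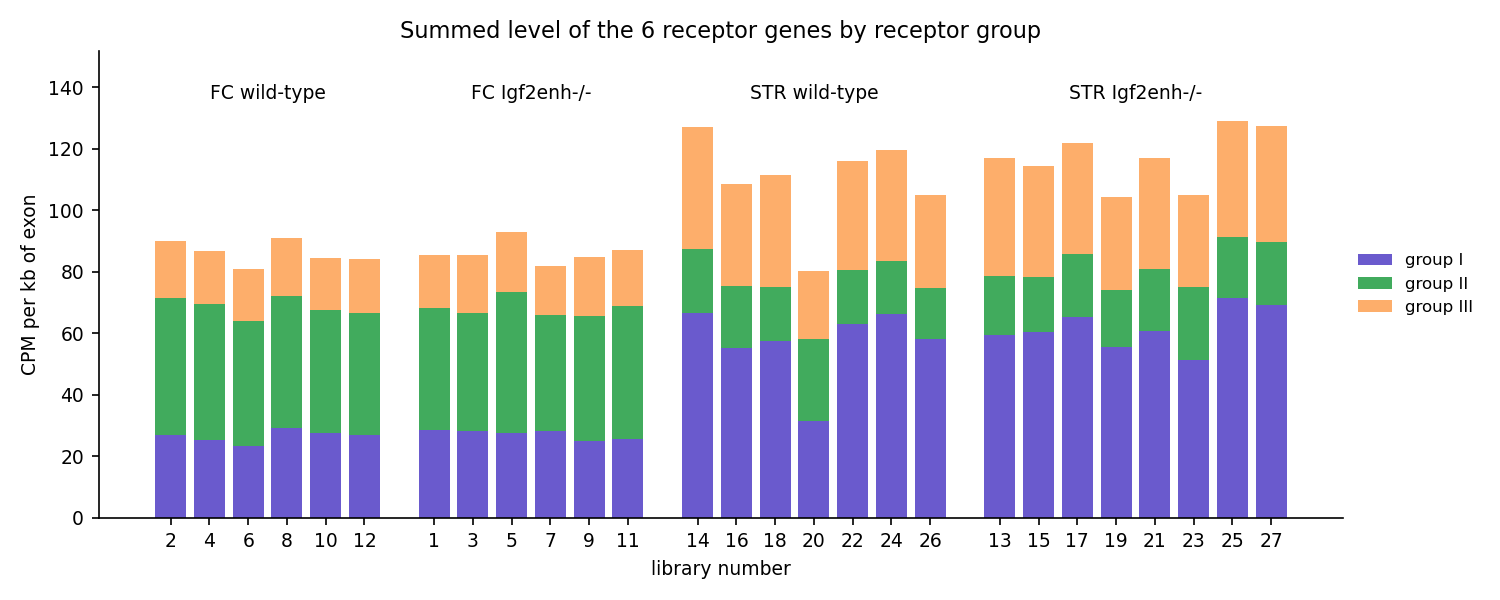
Level of the 6 receptor genes in each library, in CPM per kb of exon, stacked by receptor group (I, Grm5; II, Grm2 and Grm3; III, Grm4, Grm7 and Grm8), with libraries on the horizontal axis ordered by region (FC, frontal cortex; STR, striatum) and genotype. Group II is the tallest segment in all 12 FC libraries and group I in all 15 striatal libraries, and in library 20 group I (31.6) and group II (26.6) come closest.

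To ask which receptors differed between the regions, STR was compared with FC within each genotype in a single edgeR quasi-likelihood fit of all 27 libraries with sex as a covariate, and a gene was called at a Benjamini-Hochberg adjusted p under 0.05 over 14909 genes. All 6 receptors were called in wild-type mice, against 67.5% of all genes tested, and 5 of 6 in Igf2enh-/- mice, against 68.9%; Grm7 was the exception. In wild-type mice 3 were higher in STR (33.9% of all genes) and 3 lower (33.6%), and in Igf2enh-/- mice 3 were higher (34.2%) and 2 lower (34.7%). A call alone is therefore close to the background of these regions. With at least a 2-fold difference also required, Grm2, Grm4 and Grm5 were called in both genotypes, 3 of 6 receptors against 11.8% of genes in wild-type and 12.5% in Igf2enh-/- mice. Since the receptors were chosen with earlier results of these data known, this is a description, and an excess over all genes was not tested. The labels do not say which FC and STR libraries share a mouse, and libraries were treated as independent. Besides the neuronal markers, summed CPM of 6 oligodendrocyte markers differed between the regions, from 937 to 1999 in FC and from 4607 to 10017 in STR, and the part of cell content in the region differences was not tested. The median log2 difference over the 6 receptors was 0.087 in wild-type and 0.15 in Igf2enh-/- mice, beside 0.0083 and 0.0019 over all genes.

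Grm5 (ENSMUSG00000049583, chromosome 7, 87583981 to 88135063 in GRCm38.p6), the group I member and a postsynaptic receptor abundant in medium spiny neurons, was the leading receptor per kb in STR. Its lowest, median and highest levels were 189, 217 and 235 CPM in wild-type FC, 203, 224 and 230 CPM in Igf2enh-/- FC, 255, 470 and 536 CPM in wild-type STR and 414, 488 and 578 CPM in Igf2enh-/- STR. All 15 striatal libraries lay above all 12 from FC, and library 20 was the lowest of STR. The log2 difference of STR over FC was 1.10 (standard error 0.113, adjusted p = 6.3e-09) in wild-type and 1.18 (standard error 0.111, adjusted p = 1.2e-09) in Igf2enh-/- mice by edgeR's quasi-likelihood test. These are 2.15-fold and 2.27-fold higher levels in STR.

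Grm2 (ENSMUSG00000023192, chromosome 9, 106644534 to 106656109), a group II receptor known as a presynaptic autoreceptor of glutamatergic neurons, showed the largest region difference of the 6. In FC its lowest, median and highest levels were 89.7, 95.0 and 105 CPM in wild-type and 78.5, 87.2 and 105 CPM in Igf2enh-/- mice. In STR they were 1.44, 5.15 and 37.4 CPM in wild-type and 2.12, 4.75 and 25.6 CPM in Igf2enh-/- mice. No striatal library reached the lowest FC library, but STR itself spanned a 26.1-fold range, with library 20 highest, then library 23 (25.6 CPM) and library 16 (11.5 CPM). The fitted log2 difference of STR over FC was -3.43 (standard error 0.546, adjusted p = 5.2e-06) in wild-type and -3.71 (standard error 0.528, adjusted p = 9.1e-07) in Igf2enh-/- mice, or 10.8-fold and 13.1-fold lower. Without library 20 the wild-type value was -4.20 (18.4-fold lower), and without libraries 15 and 20 it was -4.19 (18.3-fold lower). The value in Igf2enh-/- mice was -4.26 without library 23 and -3.49 (11.2-fold lower) without libraries 15 and 20.

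Grm3 (ENSMUSG00000003974, chromosome 5, 9485236 to 9725352), the other group II receptor, is made by astrocytes as well as neurons. It ran the other way to Grm2. Lowest, median and highest levels were 44.8, 46.2 and 51.0 CPM in wild-type FC, 46.2, 51.0 and 51.3 CPM in Igf2enh-/- FC, 49.1, 59.5 and 72.3 CPM in wild-type STR and 56.5, 65.2 and 70.4 CPM in Igf2enh-/- STR. In 14 of 15 striatal libraries the level was above every FC library, and the lowest wild-type striatal library fell inside the FC range. The log2 difference of STR over FC was 0.34 (standard error 0.0618, adjusted p = 3.1e-05) in wild-type and 0.36 (standard error 0.060, adjusted p = 9.9e-06) in Igf2enh-/- mice, a 1.27-fold and a 1.28-fold higher level. Summed CPM of 6 astrocyte markers was 1333 to 1648 in FC and 1244 to 1663 in STR. The ratio of Grm2 to Grm3 per kb was 1.66 to 2.51 in FC libraries and 0.0255 to 0.734 in STR libraries, so that Grm2 was the more abundant group II transcript in every FC library and Grm3 in every striatal one.

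Grm4 (ENSMUSG00000063239, chromosome 17, 27422387 to 27513826), a group III receptor found on terminals of striatal projection neurons, was the most strongly striatal of the 6. Lowest, median and highest values were 24.8, 25.6 and 27.6 CPM in wild-type FC, 20.9, 26.1 and 30.1 CPM in Igf2enh-/- FC, 71.7, 131 and 148 CPM in wild-type STR and 94.0, 132 and 139 CPM in Igf2enh-/- STR. The regions did not overlap, and library 20 was again the lowest in STR. Fitted log2 differences of STR over FC were 2.21 (standard error 0.124, adjusted p = 1.5e-13) in wild-type and 2.27 (standard error 0.122, adjusted p = 6.2e-14) in Igf2enh-/- mice, or 4.62-fold and 4.84-fold higher.

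Grm7 (ENSMUSG00000056755, chromosome 6, 110645349 to 111567230), a low-affinity receptor of presynaptic active zones, differed least between the regions. Its lowest, median and highest levels were 59.5, 61.5 and 67.6 CPM in wild-type FC, 58.0, 63.5 and 72.4 CPM in Igf2enh-/- FC, 41.0, 57.8 and 62.2 CPM in wild-type STR and 55.9, 60.2 and 67.9 CPM in Igf2enh-/- STR. Of 15 striatal libraries, 6 lay below the FC range and the others inside it. In wild-type mice the log2 difference was -0.17 (standard error 0.0688, adjusted p = 0.036), and the adjusted p was 0.074 without library 20 (log2 difference -0.11). It was also above 0.05 when wild-type library 2, 8 or 22 was left out, up to 0.11 without library 8. In Igf2enh-/- mice the log2 difference was -0.061 (standard error 0.0666, adjusted p = 0.42), with a 95% interval from -0.20 to 0.076, and was -0.036 without libraries 15 and 20.

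Grm8 (ENSMUSG00000024211, chromosome 6, 27275121 to 28135146), a presynaptic group III receptor, was the lowest of the 6 per kb in FC and was lower still in STR. It had 13.1, 17.5 and 22.3 CPM as lowest, median and highest values in wild-type FC, 16.8, 20.7 and 23.6 CPM in Igf2enh-/- FC, 9.49, 10.9 and 14.1 CPM in wild-type STR and 10.4, 12.6 and 15.2 CPM in Igf2enh-/- STR. The regions overlapped in wild-type mice through 1 striatal library and did not overlap in Igf2enh-/- mice. Log2 differences of STR over FC were -0.61 (standard error 0.118, adjusted p = 6.7e-05) in wild-type and -0.69 (standard error 0.113, adjusted p = 7.7e-06) in Igf2enh-/- mice, 1.53-fold and 1.61-fold lower. Within group III, Grm4 was therefore higher in STR and Grm8 lower.

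**Figure D2:**
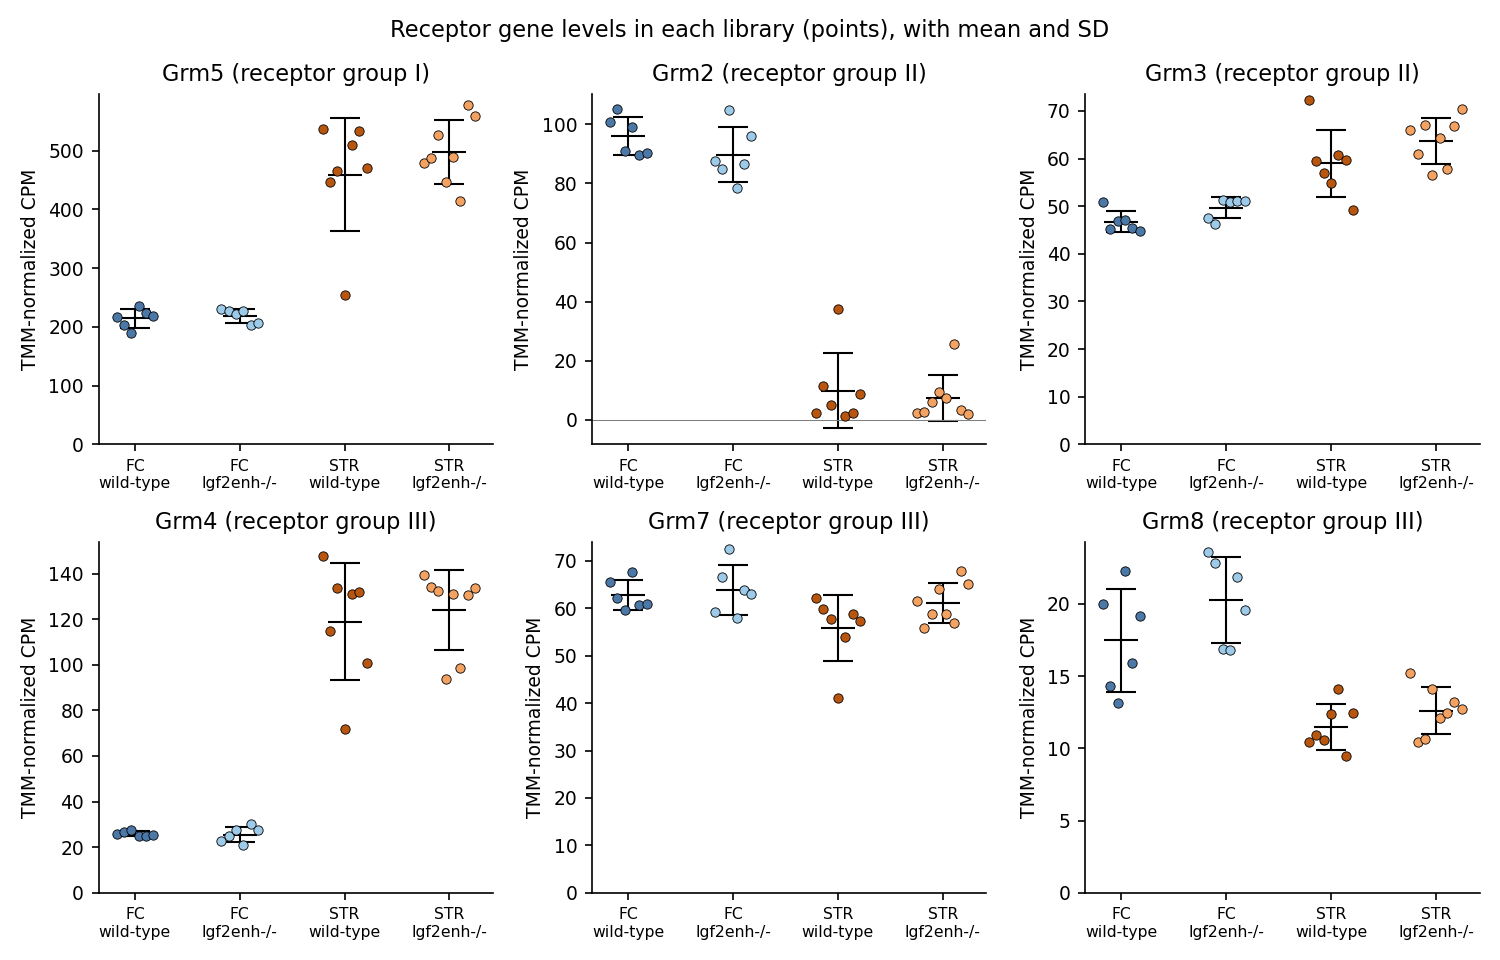
TMM-normalized CPM (vertical axes, from 0; the axis of Grm2 extends below 0 for its error bar) of each receptor gene in each library (points), by region (FC, frontal cortex; STR, striatum) and genotype, with the mean and SD of each group (bars). Grm2, Grm4 and Grm5 separate the regions completely, and wild-type and Igf2enh-/- libraries overlap in both regions for all 6 genes. How often either holds among all genes was not counted. The highest Grm2 and lowest Grm4, Grm5 and Grm7 values of wild-type STR all belong to library 20.

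The levels of several receptors moved with the neuronal markers among the striatal libraries. The 5 striatal libraries with the highest Grm2, libraries 20, 23, 16, 19 and 26, were also those with the highest cortical marker sum (571 to 1138 CPM), and the libraries with the lowest Grm4, libraries 20, 19, 23 and 26, had the lowest medium spiny neuron sums (3759 to 5932 CPM). Over these 15 libraries, log2 CPM of Grm2 and of the cortical sum gave Pearson's r = 0.87 (two-sided permutation p = 9e-05) and Spearman's rho = 0.97 (permutation p = 1e-05, the smallest that 100000 permutations can give). Adjusted over the 12 relations computed, 6 receptors with 2 marker sums, these p-values were 0.00036 and 6e-05. Without libraries 22 and 14, the farthest from the median of that sum, r was 0.93, and within genotypes it was 0.91 (wild-type, n = 7) and 0.94 (Igf2enh-/-, n = 8). For Grm4 and the medium spiny neuron sum r was 0.97 (adjusted permutation p = 6e-05) and rho 0.79 (adjusted permutation p = 0.0029), with r = 0.92 without libraries 20 and 19 and 0.97 within each genotype. With the medium spiny neuron sum Grm2 gave r = -0.91 and rho = -0.93 (adjusted permutation p = 6e-05 for both), and -0.90 without libraries 20 and 19. The cortical sum was also related to Grm4 (r = -0.73, adjusted permutation p = 0.0052), Grm3 (-0.62, p = 0.021) and Grm5 (-0.61, p = 0.021), with r = -0.82, -0.66 and -0.72 without libraries 22 and 14. For Grm7 and the cortical sum r was -0.31 (adjusted permutation p = 0.31). These measures share each library's scaling and RNA composition, and the relations were chosen after values were seen.

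Grm5 gave r = 0.85 and rho = 0.74 with the medium spiny neuron sum (adjusted permutation p = 0.00069 and 0.0045), and r = 0.67 without libraries 20 and 19. Grm3 gave r = 0.70 and rho = 0.77 with the same sum (adjusted permutation p = 0.0076 and 0.0029), and 0.72 without those libraries. The relation of Grm7 rested on them, since r = 0.61 (adjusted permutation p = 0.042) came to 0.28 without them and rho was 0.32 (adjusted permutation p = 0.33). Grm8 showed no relation that could be detected, with r = 0.011 for the cortical sum and r = -0.10 for the medium spiny neuron sum (adjusted permutation p = 0.97 and 0.79).

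**Figure D3:**
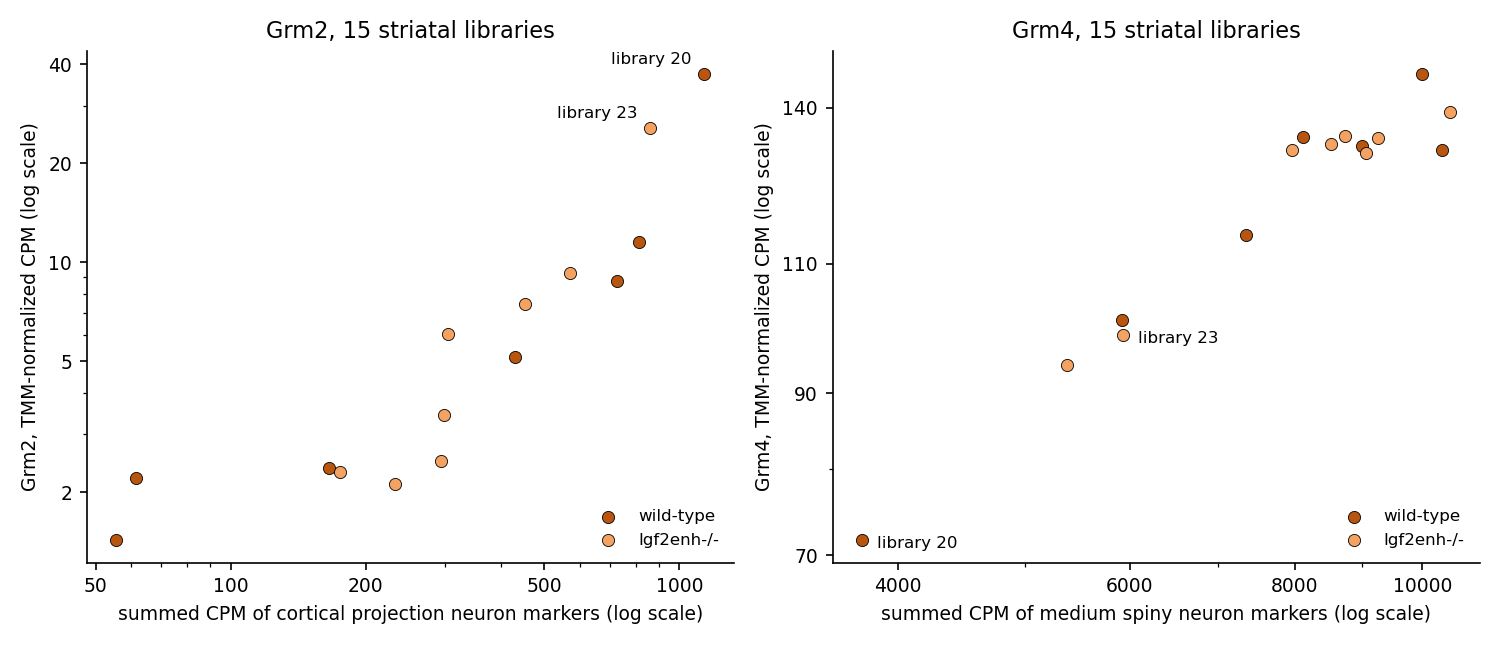
Grm2 against the summed CPM of 8 cortical projection neuron markers (left) and Grm4 against that of 9 medium spiny neuron markers (right) in the 15 striatal libraries, by genotype, with CPM on log scales on all axes. Grm2 rises from 1.44 to 37.4 CPM and Grm4 from 71.7 to 148 CPM across the libraries, with library 20 at the upper right of the left panel and the lower left of the right panel.

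Within regions, the genes whose levels followed each receptor most closely were found among 14909 genes by Pearson's r of log2(CPM + 0.5) over the 27 libraries, after each region's mean was subtracted. For Grm2 they were Satb1 (r = 0.98), Cux2 (0.98) and Adra1d (0.97). Grm4 was followed by Penk (0.93), Gphn (0.91) and Tbc1d8 (0.91), and Grm5 by Lmo7 (0.95), Akap5 (0.94) and Galnt13 (0.93). Penk is one of the medium spiny neuron markers, so its likeness to Grm4 is not separate from the relation of Grm4 to their sum. Likeness was lower for Grm3 (Krt10, 0.83; 5033430I15Rik, 0.82; Tarsl2, 0.81), Grm7 (BC007180, 0.89; Caprin1, 0.86; Dcun1d4, 0.86) and Grm8 (Zfp760, 0.75; Hint3, 0.74; Cep112, 0.72). Among the receptors themselves, Grm2 ran against Grm4 (-0.77) and Grm5 (-0.77), Grm5 ran with Grm7 (0.76) and Grm4 (0.68), and Grm8 had no r outside -0.19 to 0.14. These values are descriptions over libraries that share differences in marker content, and for every receptor but Grm8, whose level spread more in FC, the striatal libraries spread more and weigh most in them.

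The comparison of Igf2enh-/- with wild-type mice asked whether loss of the enhancer changed receptor RNA. None of the 6 receptors was called in FC by edgeR's quasi-likelihood test, against 0.38% of 13936 genes tested, and none in STR, against 0.036% of 13875. In both regions 0 of 6 also reached an unadjusted p under 0.05, against 13.5% of all genes in FC and 10.1% in STR. The likelihood ratio test of edgeR and DESeq2 called 0 of 6 as well. In FC the quasi-likelihood test gave Grm2 and Grm8 an unadjusted p under 0.05 without a filter on low counts. It did so for Grm3 when library 1 was left out. Over the receptors the median log2 difference was 0.028 in FC and 0.11 in STR, beside 0.00073 and 0.00040 over all genes.

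In FC the receptors were measured closely enough to bound the genotype difference. For Grm5, 214 ± 16.0 CPM (SD, n = 6) in wild-type and 219 ± 11.8 CPM in Igf2enh-/- mice gave a log2 difference of 0.032 with a 95% interval from -0.074 to 0.14. Grm2 had 95.9 ± 6.46 and 89.8 ± 9.28 CPM, a log2 difference of -0.098 (-0.23 to 0.031). Grm3 came nearest to the threshold, with 46.7 ± 2.27 and 49.7 ± 2.24 CPM and a log2 difference of 0.086 (-0.0013 to 0.17, unadjusted p = 0.053, adjusted p = 0.38 in edgeR). Its groups overlapped, although 3 of 6 Igf2enh-/- libraries lay above every wild-type one. Values for Grm4 were 25.9 ± 1.11 and 25.5 ± 3.42 CPM (log2 difference -0.019, interval -0.18 to 0.14), and for Grm7 62.7 ± 3.17 and 63.9 ± 5.26 CPM (0.023, -0.087 to 0.13). Grm8 had the widest interval in FC, from -0.057 to 0.49 around 0.21, with 17.5 ± 3.57 and 20.2 ± 2.98 CPM. As folds of Igf2enh-/- over wild-type, the intervals of all 6 lay between 0.855 and 1.40.

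In STR the standard error of the genotype difference was larger than in FC for every receptor except Grm8. Grm2 had 9.84 ± 12.7 CPM (SD, n = 7) in wild-type and 7.35 ± 7.83 CPM (SD, n = 8) in Igf2enh-/- mice, with a log2 difference of -0.43 and a 95% interval from -1.80 to 0.93. Single libraries moved it both ways: the log2 difference was 0.30 (-1.04 to 1.65, adjusted p = 0.93 in edgeR) without library 20, -0.90 without library 23 and 0.46 without libraries 15 and 20. As a fold, the interval over all libraries ran from 0.287 to 1.91, so the spread of Grm2 left a wide range of genotype differences undetectable. Grm5 had 459 ± 96.7 and 498 ± 54.8 CPM, a log2 difference of 0.11 (-0.16 to 0.38) that came to 0.013 (-0.15 to 0.17) without library 20. For Grm4 the values were 119 ± 25.6 and 124 ± 17.5 CPM, with 0.048 (-0.21 to 0.30) and, without library 20, -0.031 (-0.23 to 0.17). Grm3 (59.0 ± 7.05 and 63.7 ± 4.85 CPM) differed by 0.11 (-0.034 to 0.24), Grm7 (55.8 ± 7.01 and 61.1 ± 4.26 CPM) by 0.13 (-0.023 to 0.28), or 0.072 (-0.029 to 0.17) without library 20, and Grm8 (11.5 ± 1.58 and 12.6 ± 1.62 CPM) by 0.15 (-0.051 to 0.34). Wild-type and Igf2enh-/- libraries overlapped for each gene. Cortical marker sums were 55.6 to 1138 CPM in wild-type and 176 to 861 CPM in Igf2enh-/- STR, and their part in these differences was not tested.

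**Figure D4:**
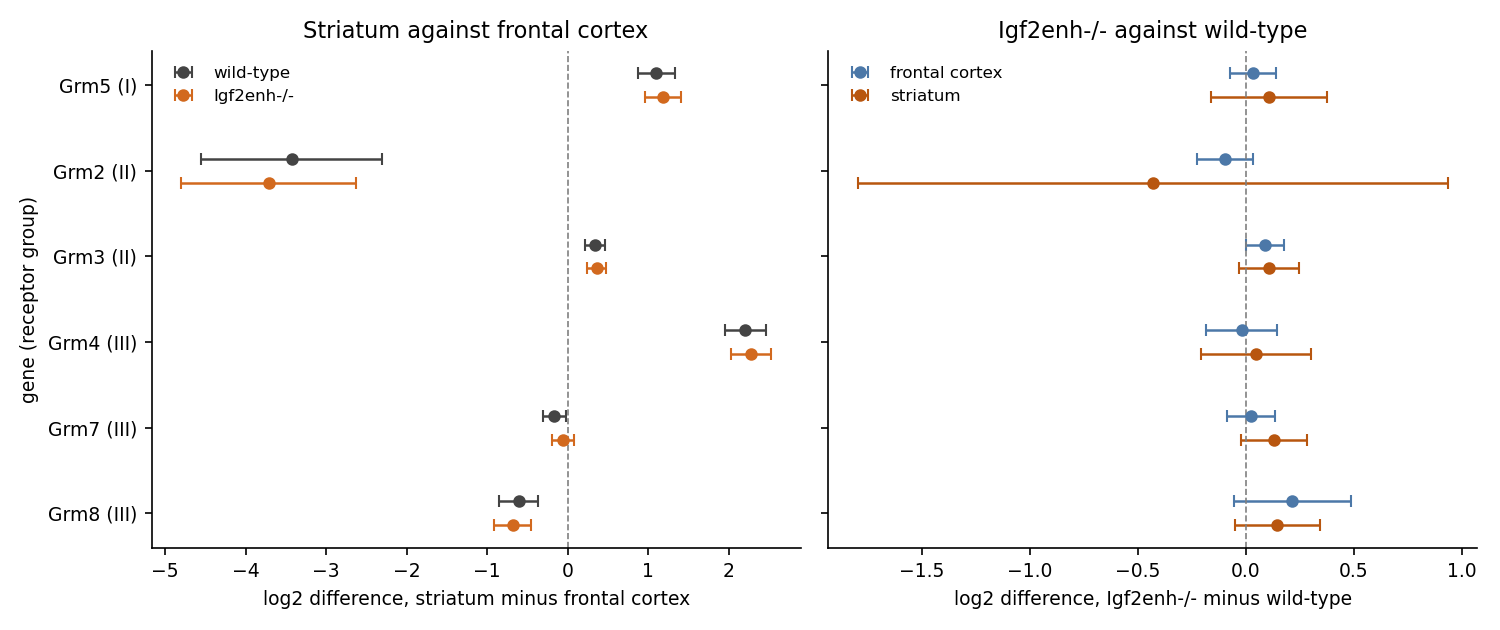
Fitted log2 differences (points) with 95% intervals (bars) for each receptor gene, of STR minus FC in each genotype (left) and of Igf2enh-/- minus wild-type in each region (right). Region differences run from -3.71 for Grm2 to 2.27 for Grm4 while every interval of a genotype difference includes 0 and that of Grm2 in STR, -1.80 to 0.93, is the widest.

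Whether the genotype difference itself differed between regions was tested as an interaction. None of the 6 receptors was called, as for all genes (0% of 14909 called by edgeR's quasi-likelihood test, 433 with an unadjusted p under 0.05, and 0 genes called by the likelihood ratio test or DESeq2). No receptor had an unadjusted p under 0.05 by any of these tests. Grm7, called between regions in wild-type but not in Igf2enh-/- mice, had an interaction of 0.10 on the log2 scale (95% interval -0.093 to 0.30, adjusted p = 1.00 in edgeR), so a difference between the genotypes was not shown. For the other receptors the interaction ran from -0.29 (Grm2) to 0.081 (Grm5). Without library 20 it was 0.045 for Grm7 and changed sign for Grm2 (0.57), Grm4 (-0.016) and Grm5 (-0.021). For Grm3 the interaction went from 0.018 to 0.0058 without library 20. For Grm8 it went from -0.076 to -0.032 without libraries 15 and 20.

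Sex was compared in the same fits. None of the 6 receptors was called between males and females in FC, against 0.0431% of genes, or in STR, against 0.0432%. None had an unadjusted p under 0.05 by edgeR's quasi-likelihood test, against 7.56% of all genes in FC and 10.8% in STR. The likelihood ratio test and DESeq2 called 0 of 6 too. Each of them, and the quasi-likelihood test without a filter on low counts, gave Grm2 and Grm4 an unadjusted p under 0.05 in STR. There, Grm2 had lowest, median and highest values of 2.21, 3.45 and 11.5 CPM in 7 females and 1.44, 8.15 and 37.4 CPM in 8 males, and the log2 difference of males over females was 1.33 (95% interval -0.070 to 2.73, adjusted p = 0.47). Grm4 had 115, 134 and 148 CPM in females and 71.7, 116 and 134 CPM in males, a log2 difference of -0.25 (-0.51 to 0.0025, adjusted p = 0.47). Beside these, the median cortical sum of striatal libraries was 300 CPM in females and 512 CPM in males, and the median medium spiny neuron sum 8743 CPM in females and 6946 CPM in males. Without libraries 15 and 20 the sex difference of Grm2 was 0.54 and that of Grm4 -0.18.

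The genes through which the receptors signal were then counted in lists. Of 32 genes for G proteins, effectors and regulators, 11 were higher and 18 lower in STR than in FC in wild-type mice, and 12 and 18 in Igf2enh-/- mice, beside 33.9% higher and 33.6% lower among all genes in wild-type and 34.2% and 34.7% in Igf2enh-/- mice. The list's median log2 difference was -0.22 and -0.23. Rgs9, which speeds the shut-off of Gi and Go signals and is one of the medium spiny neuron markers, was 6.89 (wild-type) and 6.79 (Igf2enh-/-) higher on the log2 scale, with 3.34 to 6.20 CPM in FC and 272 to 693 CPM in STR. Subunits of the G protein-gated potassium channels, which Gi and Go coupled receptors open, were lower in STR. Kcnj6 fell by 2.73 and 2.69 on the log2 scale, Kcnj3 by 2.10 and 2.18, and Kcnj9 by 1.65 and 1.62. FC levels of Kcnj3 were 151 to 204 CPM and striatal ones 15.3 to 106 CPM.

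Among 18 scaffolds and partner proteins, 4 were higher and 11 lower in STR in each genotype (all genes, 33.9% and 33.6% in wild-type, 34.2% and 34.7% in Igf2enh-/- mice), with a median log2 difference of -0.27 and -0.31. Without libraries 15 and 20 these counts were 4 higher and 10 lower in wild-type mice and the same as before in Igf2enh-/- mice. Shank1 and Dlgap1, scaffolds of the postsynaptic density, had log2 differences of -1.72 and -1.98 and of -1.40 and -1.51 in wild-type and Igf2enh-/- mice. Homer2, whose protein binds the tail of group I receptors, had -1.30 and -1.28, and Cabp1, a neuronal calcium-binding protein, -1.19 and -1.26. Shank1 ran from 1088 to 1246 CPM in FC and from 140 to 747 CPM in STR. Relatives of these genes, named after their values were seen, did not all run the same way: Shank3 was higher in STR, with log2 differences of 0.87 and 0.83, as was Homer3 (0.59 and 0.36), while Homer1 had -0.034 and 0.0024 and was not called.

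In the list of 15 genes for the supply and clearance of glutamate and of N-acetylaspartylglutamate, a peptide that acts on Grm3, 4 were higher and 8 lower in STR in each genotype (all genes, 33.9% and 33.6% in wild-type, 34.2% and 34.7% in Igf2enh-/- mice), with a median log2 difference of -0.12 and -0.17. Without libraries 15 and 20 these counts were 4 higher and 10 lower in wild-type and 3 higher and 6 lower in Igf2enh-/- mice. Slc17a7, the vesicular glutamate transporter of most cortical neurons and one of the cortical markers, had log2 differences of -2.38 and -2.72, with 1485 to 1687 CPM in FC and 13.6 to 744 CPM in STR. Slc17a6, its counterpart in thalamic neurons and one of the thalamic markers, had -1.43 (standard error 0.470) and -1.08 (standard error 0.448). Its levels overlapped between the regions, with 12.8 to 19.5 CPM in FC and 0.684 to 20.5 CPM in STR. Slc17a8, the transporter of cholinergic interneurons among other cells, was higher in STR by 2.39 and 2.21, and Rimkla, a synthase of N-acetylaspartylglutamate, by 0.91 and 1.02.

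By genotype, 0 genes of the 3 lists were called in either region by edgeR's quasi-likelihood test, against 0.38% of all genes in FC and 0.036% in STR. Kcnj6 and Slc17a6 were not among the genes tested in STR, since they fell below the filter on low counts there. The same test without a filter on low counts called Kcnj9 and Cabp1 in FC, and without FC library 1 it called Grasp, a scaffold gene. In FC, Kcnj9, Grip1 and Folh1 had an unadjusted p under 0.05 (13.5% of all genes), and in STR Homer3 and Siah1a did (10.1%). Kcnj9 had a log2 difference of -0.18 in FC (standard error 0.0486, adjusted p = 0.12) and was called by the likelihood ratio test and by DESeq2, which called no other gene of these lists in FC and none in STR.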

How the data were processed

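The authors deposited raw counts of single-end 75 bp reads per gene, 1 table per region. Per the labels and methods, ribosomal RNA was depleted from total RNA, and reads were trimmed (Trim Galore 0.5.0) and aligned with STAR to GRCm38 with GENCODE vM15; whether counting used strand is not given in the sources used here. Columns of other samples numbered 0. Of 52636 identifiers, 32688 had a symbol in GENCODE vM1 (NCBIM37), which also gave exon lengths; printed positions are RefSeq's for GRCm38.p6.

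Counts were TMM-normalized and tested with edgeR 4.0.16 (R 4.3.3) by the quasi-likelihood F-test with Benjamini-Hochberg adjustment over all genes tested. Genotype was tested within each region with sex as covariate, on genes that reached 1 CPM in each of that region's libraries. Region and interaction came from a single fit of 4 group means and sex, on genes with a mean of at least 1 CPM. The study's likelihood ratio test, DESeq2 1.42.0, other scalings and filters, models without sex, region fits within a genotype and leaving out each library were alternatives. Within a region the study's mouse numbers equal the library numbers; which libraries of both regions share a mouse is not stated in the sources used here. Scripts were tested on simulated data. Permutation p-values used scipy 1.17.1.

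The 6 receptors and all lists were chosen with earlier results of these data known. Named are the receptors, Grm6, list genes called for genotype, per list the 4 genes of largest region difference called alike in both genotypes, and the 3 most similar genes of each receptor; list genes with an unadjusted p under 0.05 for genotype, or called for it under an alternative, were chosen after their values were seen. A further gene that this rule names is not reported here. Of the marker lists, those for cortical projection neurons, medium spiny neurons, astrocytes, oligodendrocytes and choroid plexus are given beside results, and the other 6 with the closing values.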

Additional observations from a re-analysis of the deposited data

Results flagged for a closer look

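Each of the values looked at, receptor levels, shares and marker sums, was searched in the 4 groups for a library that lay far from the others (Dixon's ratio of its gap to the group's range, above the 95% critical value). Of 88 groups of values, 14 were flagged, and chance flags about 1 in 20. The values are not independent, since shares and the ratio of Grm2 to Grm3 are computed from the receptor levels. An excess over chance can therefore not be read from the count of flags.

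Library 20 accounted for 6 of them in wild-type STR. Its Grm2 was the highest (37.4 CPM against 1.44 to 11.5 in the others, ratio 0.720) and its Grm5 and Grm7 the lowest (255 CPM against 446 to 536, ratio 0.681; 41.0 CPM against 53.9 to 62.2, ratio 0.608). The share of group I was the lowest there (39.4% against 50.9% to 55.5%, ratio 0.717), that of group II the highest (33.2% against 14.5% to 18.5%, ratio 0.787), and the ratio of Grm2 to Grm3 per kb reached 0.734 (ratio 0.741). Library 23 did the same for group II in Igf2enh-/- STR: Grm2 was 25.6 CPM against 2.12 to 9.29 (ratio 0.694), the share of group II 22.7% against 15.3% to 17.8% (ratio 0.660) and the ratio of Grm2 to Grm3 0.477 (ratio 0.674). Libraries 20 and 23 also had the highest cortical marker sums of STR, 1138 and 861 CPM. The part of tissue content in these values was not tested.

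Marker sums gave the other flags. In Igf2enh-/- STR, library 15 had the 4518 CPM of choroid plexus markers (ratio 0.962), with Grm2 at 2.49 and Grm4 at 134 CPM, inside the range of its group, and library 19 had the highest thalamic sum (156 CPM against 96.9 to 124, ratio 0.530). In Igf2enh-/- FC, library 1 was the lowest for medium spiny neuron markers (178 CPM against 228 to 247, ratio 0.720) and choroid plexus markers (170 CPM against 233 to 264, ratio 0.665), and library 9 the highest for olfactory bulb markers (85.4 CPM against 21.6 to 36.5, ratio 0.766).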

How the results depend on the processing

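The counts of receptors called, 0 of 6 for genotype, sex and interaction, 5 of 6 for region in Igf2enh-/- mice and 3 of 6 at 2-fold or more in each genotype, were the same under every alternative run. In wild-type mice the count for region was 5 or 6, since Grm7 was not called with filterByExpr (adjusted p = 0.060), without a filter (0.085), in the wild-type libraries alone (0.078), with scaling by total count (0.073) or without libraries 15 and 20 (0.071), an alternative chosen after seeing the data. No paired analysis was possible because the groups share no replicate numbers in the labels, and which libraries come from the same mouse is not stated in the sources used here.

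Directions that changed were those of differences that were not called. Without libraries 15 and 20 the genotype difference in STR became 0.46 for Grm2 and -0.036 for Grm4 on the log2 scale, and the interaction 0.70 for Grm2, -0.024 for Grm4 and -0.015 for Grm5. Leaving out 1 library gave genotype differences in FC from -0.081 to 0.036 for Grm4, from -0.0018 to 0.060 for Grm5 and from -0.013 to 0.053 for Grm7, and in STR from -0.90 to 0.30 for Grm2 and from -0.031 to 0.099 for Grm4. It gave sex differences in FC from -0.012 to 0.038 for Grm3, from -0.074 to 0.041 for Grm4, from -0.0055 to 0.056 for Grm5 and from -0.0031 to 0.14 for Grm8, and interactions from -0.89 to 0.57 for Grm2, from -0.019 to 0.072 for Grm3, from -0.016 to 0.14 for Grm4 and from -0.021 to 0.13 for Grm5.

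With the longest transcript as length, levels per kb were 5.66 for Grm4 in FC, 31.4 and 69.6 for Grm5 in FC and STR, 15.0 and 13.9 for Grm7, and 3.93 and 2.52 for Grm8. Genes called for genotype over all genes were 53 in FC and 5 in STR, against 232 and 56 with the likelihood ratio test, 242 and 112 with DESeq2, and 459 and 10 without a filter. For STR they were also 13 with filterByExpr and 3 without the sex term, and leaving out 1 library gave 8 to 96 in FC and 3 to 8 in STR. Genes called for sex, 6 in each region, numbered 28 and 12 with the likelihood ratio test, 21 and 16 with DESeq2, 14 and 12 with filterByExpr and 185 and 14 without a filter, and 3 in STR without libraries 15 and 20. In STR, the lowest Grm2 count of 42 and a 26.1-fold range of its level limit what genotype comparisons can show.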

Other observations

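The 6 marker lists not set beside a result gave these summed levels. In FC and STR, respectively, interneuron markers ran from 775 to 896 and from 983 to 1384 CPM, microglial markers from 214 to 238 and from 221 to 283 CPM, and endothelial markers from 174 to 213 and from 180 to 230 CPM. Olfactory bulb markers ran from 19.3 to 85.4 and from 30.3 to 94.0 CPM, thalamic markers from 120 to 161 and from 92.7 to 156 CPM, and the 3 of 4 globus pallidus markers that matched from 72.6 to 106 and from 49.7 to 69.0 CPM.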
